A study of Homo sapiens with 4 samples.

Results

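The glucocorticoid receptor gene NR3C1, its relative NR3C2, the chaperone genes that hold the receptor ready for hormone, and 4 genes known as receptor targets were followed across 4 cultured human lines derived from precursor-B acute lymphoblastic leukemia (ALL). These 10 genes were chosen by symbol from a table of 23,368 gene entries, and all 10 were found there. Of them, 9 passed the low-count filter and were tested among 13,844 genes. RS4;11 and SEM carry the chromosome translocation t(4;11), which joins the MLL (KMT2A) gene to AFF1, and are called the MLL-AFF1 lines below. NALM6 and REH lack it and serve as the controls. Each line is an established culture given as 1 RNA library, so each group holds 2 lines (n = 2). The culture medium of all 4 was RPMI with 10% FBS, and the labels name no hormone or drug treatment of any line. The labels do not say which other lesions the lines carry, so effects of t(4;11) and of other differences between lines cannot be told apart. The p-values below measure only the spread between these lines.

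Glucocorticoids such as dexamethasone and prednisolone are a backbone of ALL treatment because they kill lymphoid precursors through the receptor encoded by NR3C1. Without hormone, the receptor sits in the cytoplasm in a complex with HSP90, the cochaperone p23 and an immunophilin of the FKBP family. With hormone, it enters the nucleus and switches target genes on or off. FKBP5 is both a component of this machinery and one of its best known targets, where it acts as a brake on hormone binding.

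The libraries held between 33,620,574 (SEM) and 84,212,986 (REH) counted reads. Levels are CPM, that is counts scaled by the column sum of each line. Fold changes are log2 values of MLL-AFF1 over control from edgeR with TMM scaling, and column sums in its place moved the median of all tested genes by -0.10. The 7 B-lineage markers summed to between 1070.0 CPM (SEM) and 2195 CPM (NALM6). PAX5, the B-cell master regulator, was at 254 CPM or more in every line, while the surrogate light chain genes were low in single lines, VPREB1 at 16.4 CPM in SEM and 0.226 CPM in REH and IGLL1 at 27.1 CPM in SEM. The 5 T cell markers summed to at most 0.867 CPM, with CD3D, CD3E and CD3G at 0 counts in every line. The 5 myeloid markers summed to between 14.3 and 48.7 CPM (ELANE at 0 counts in every line) and the 4 stromal ones to between 0.245 and 4.16 CPM (COL1A2 and LUM at 0 counts in every line). Of the B-lineage markers, CD79B, a part of the B-cell receptor, had 122 (RS4;11) and 9.73 CPM (SEM), against 305 (NALM6) and 406 CPM (REH), and was called lower in the authors' deposited DESeq (adjusted p = 0.0252) and Cuffdiff (q = 0.00418) tables. Of the myeloid markers, CSF1R, the receptor for the growth factor CSF1, had 10.0 and 33.3 CPM with MLL-AFF1, against 0.0892 and 5.27 CPM without it. MPO, the granule enzyme myeloperoxidase, had 0.347 and 0.238 CPM with MLL-AFF1, against 0.134 and 34.2 CPM without it, and LYZ (lysozyme) was highest in NALM6 at 8.14 CPM. The part of these differences in the results below was not tested.

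In the MLL-AFF1 lines, the receptor gene NR3C1, both cytoplasmic HSP90 genes and the p23 gene PTGES3 stood above both controls. FKBP4 was lower and FKBP5 higher on average, and NR3C2 was lowest in SEM and highest in REH. By edgeR's quasi-likelihood test, 0 of the 9 tested genes had an adjusted p under 0.05, as did 0% of all genes tested. At an unadjusted p under 0.05 the test gave 3 of the 9, where 12.0% of all tested genes had one and 6.18% had one in the higher direction. These were NR3C1, HSP90AA1 and PTGES3, all higher with MLL-AFF1. The same 3 were called by DESeq2, which called 10.1% of the genes it tested, 5.21% as higher. The edgeR exact test called 0 of the 9 and 3.19% of all genes. Of the 9, the authors' deposited DESeq table called 0 (1.56% of its tested genes), and the authors' deposited Cuffdiff table called NR3C1 higher, where it called 1.23% of its tested genes higher and 2.34% in either direction. In CPM, 4 of the 9 genes were above both controls in both MLL-AFF1 lines and 1 was below, where 19.0% and 28.3% of all tested genes were. With TMM-scaled library sizes 5 were above and 0 below, where 24.3% and 23.4% were. Over the 9 genes the median log2 fold change was 0.52, against -0.02 over all tested genes.

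**Figure D1:**
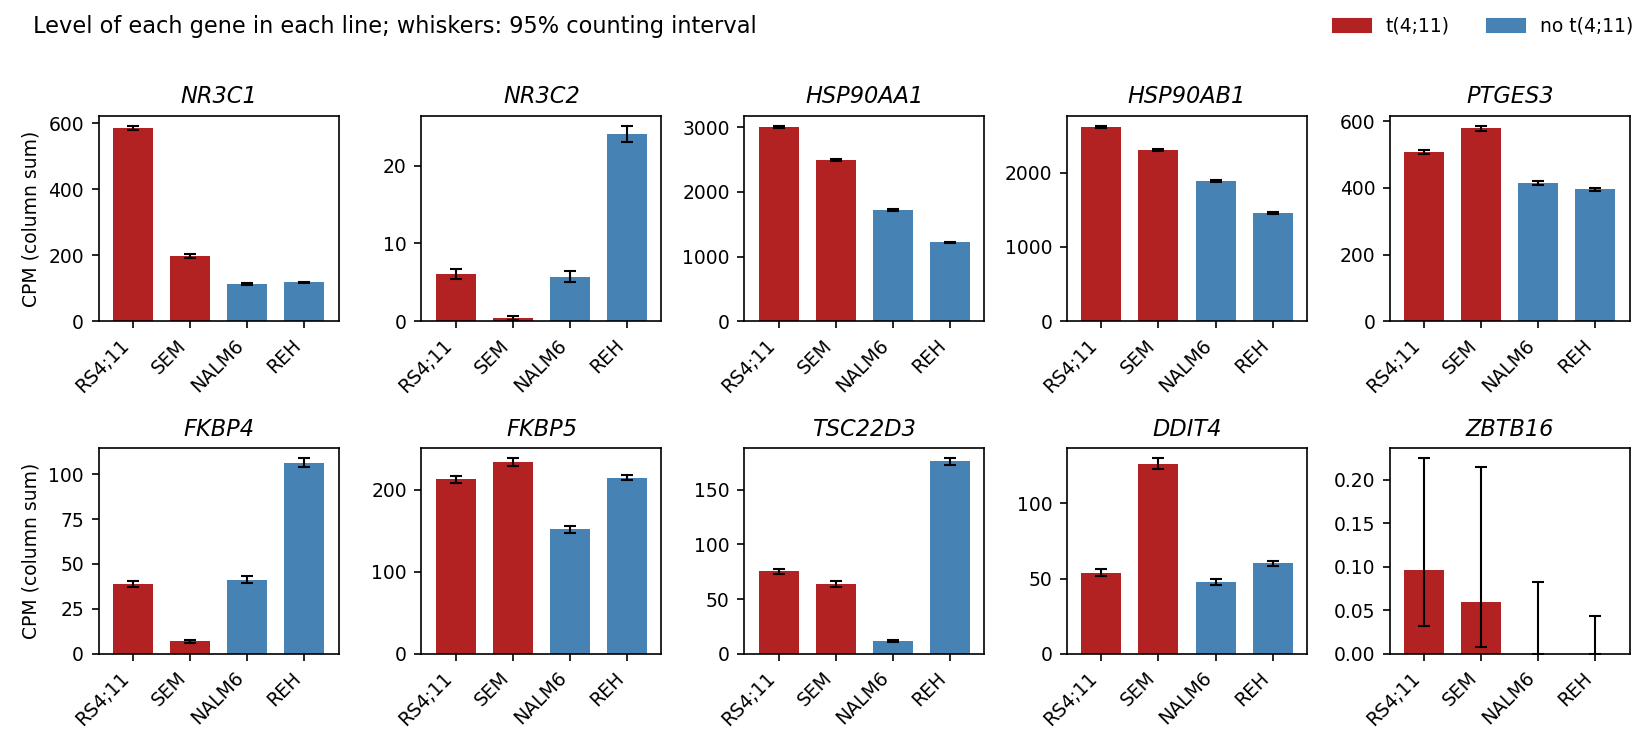
Level of each of the 10 genes in each line, in CPM scaled by column sum (y axis, starting at 0, a scale of its own in each panel). Red bars are the t(4;11) lines RS4;11 and SEM, blue bars the lines without it, and whiskers are exact Poisson 95% intervals, which cover counting error only. NR3C1 is highest in RS4;11 at 587 CPM, while NR3C2, FKBP4 and TSC22D3 are highest in REH.

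NR3C1 encodes the glucocorticoid receptor and lies on chromosome 5 (142,657,496 to 142,815,077, hg19). It had 587 CPM (RS4;11) and 198 CPM (SEM) in the MLL-AFF1 lines, against 113 CPM (NALM6) and 118 CPM (REH) in the controls. Both MLL-AFF1 lines were above both controls, and RS4;11 stood apart from the other 3 lines. The controls had overlapping counting intervals (109.7 to 116 CPM in NALM6 and 115 to 119.9 CPM in REH). The group means were 392 ± 275 CPM with MLL-AFF1 and 115 ± 3.37 CPM without it (SD, n = 2 each), a 3.41-fold ratio. On the log2 scale the fold change was 1.88 (SE 0.61, edgeR adjusted p = 0.400), and it was 0.88 without RS4;11 and 2.48 without SEM. In such bulk RNA, fewer cells with a transcript and less RNA per cell cannot be told apart. The authors' deposited Cuffdiff table gave 64.7 FPKM, a length-scaled unit, with MLL-AFF1 and 18.0 FPKM in the controls, with a q-value of 0.00418. By FPKM the gene ranked 1164th with MLL-AFF1 and 4669th in the controls among 14,203 genes of the authors' deposited Cuffdiff table. The authors' deposited DESeq table gave it an adjusted p of 1.00.

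NR3C2 encodes the mineralocorticoid receptor, which binds cortisol as well as aldosterone, and lies on chromosome 4 (148,999,915 to 149,363,672, hg19). It had 6.03 CPM (RS4;11) and 0.416 CPM (SEM) in the MLL-AFF1 lines, against 5.73 CPM (NALM6) and 24.0 CPM (REH) in the controls. The groups overlapped, and RS4;11 and NALM6 could not be told apart by their counting intervals (5.38 to 6.74 CPM and 5.05 to 6.48 CPM). In SEM the value rests on 14 reads, with an interval of 0.228 to 0.699 CPM. REH exceeded SEM 57.7-fold, the widest spread among the 9 tested genes. Its fitted log2 fold change, -2.09 (SE 1.57, edgeR adjusted p = 0.641), ranged from -5.06 without RS4;11 to -0.72 without REH. Without SEM it was -1.18 and without NALM6 -2.78.

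Since library size and gene length cancel in a ratio of counts compared between lines, the balance of the receptors was also read that way. The ratio of NR3C1 to NR3C2 counts was 97.2 in RS4;11 and 475 in SEM, against 19.7 in NALM6 and 4.89 in REH. The value in SEM rests on only 14 NR3C2 reads. Every line held more NR3C1 than NR3C2 reads, and both MLL-AFF1 lines were above both controls. The mean log2 ratio was 7.75 ± 1.62 with MLL-AFF1 and 3.29 ± 1.42 without it (SD, n = 2 each), a difference of 4.45. The exact two-sided permutation test gave p = 0.333, the smallest value that 2 lines against 2 allow. In the length-scaled FPKM of the authors' deposited Cuffdiff table, NR3C1 exceeded NR3C2 112-fold in the MLL-AFF1 group and 7.10-fold in the controls.

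The HSP90 chaperones fold the hormone-binding domain of the receptor and keep it able to bind. HSP90AA1 encodes the stress-inducible form and HSP90AB1 the constitutive form. HSP90AA1, on chromosome 14 (102,547,075 to 102,606,086, hg19), had 3006 CPM (RS4;11) and 2490.3 CPM (SEM) in the MLL-AFF1 lines, against 1719.7 CPM (NALM6) and 1219 CPM (REH) in the controls. Both MLL-AFF1 lines were above both controls, and no counting intervals overlapped. Its group means were 2748 ± 365 CPM with MLL-AFF1 and 1469 ± 354 CPM without it (SD, n = 2 each), a 1.87-fold ratio. The log2 fold change was 1.01 (SE 0.30, edgeR adjusted p = 0.384) and stayed between 0.77 and 1.28 when each line was left out in turn. The authors' deposited DESeq table gave an unadjusted p of 0.00607 and an adjusted p of 0.240.

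HSP90AB1, on chromosome 6 (44,214,849 to 44,221,614, hg19), had 2615 CPM (RS4;11) and 2302 CPM (SEM) in the MLL-AFF1 lines, against 1891 CPM (NALM6) and 1458 CPM (REH) in the controls. The lines fell in the same order as for HSP90AA1, with RS4;11 first and REH last. Its log2 fold change was 0.66 (SE 0.26, edgeR adjusted p = 0.448), with a range of 0.48 to 0.86 on leaving out a line. Both genes together took 0.562% and 0.479% of all counts in RS4;11 and SEM, against 0.361% in NALM6 and 0.268% in REH. Per length, HSP90AB1 was the more abundant, with 1048 FPKM with MLL-AFF1 and 667 FPKM in the controls, against 866 and 432 FPKM for HSP90AA1 in the authors' deposited Cuffdiff table.

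The ratio of HSP90AA1 to HSP90AB1 counts was 1.15 in RS4;11 and 1.08 in SEM, against 0.909 in NALM6 and 0.836 in REH. The stress-inducible form thus took the larger share of reads in both MLL-AFF1 lines and the smaller share in both controls. The mean log2 ratio was 0.16 ± 0.06 with MLL-AFF1 and -0.20 ± 0.09 without it (SD, n = 2 each), a difference of 0.35, with an exact two-sided permutation p of 0.333. That p is the smallest 2 lines against 2 can give.

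Both genes have annotated pseudogenes, copies that can share reads, so their counts are uncertain to that extent. GENCODE names 4 such copies for HSP90AA1 and 5 for HSP90AB1. Of these, HSP90AB2P had 1676 and 884 reads in RS4;11 and SEM, against 1781 and 3541 reads in NALM6 and REH. Relative to HSP90AB1 this was 1.24% and 1.14% with MLL-AFF1 and 2.10% and 2.88% without it. The other 4 copies with an entry had at most 12 reads in a line. FKBP4 and PTGES3 also have 5 such copies each, none of which had an entry of its own. On the opposite strand, another annotated gene shares exon bases with HSP90AA1, FKBP4, TSC22D3 and DDIT4, and reads of such pairs cannot be told apart without strand.

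Heat-shock elements, the binding sites of heat-shock factor HSF1, are arrays of the unit NGAAN in alternating orientation. The HSP90 sites are shown because HSF1 is the textbook activator of these genes, so matches there were likely in advance. Any part of HSF1 in the levels of these lines was not tested. The DDIT4 and TSC22D3 sites are the other matches found. The 250 bases before each annotated start were read from RefSeq promoter sequences (GRCh38.p14), which held 24 such windows for 8 of the 10 genes and none for FKBP4 and ZBTB16. The sites below are printed 5′ to 3′ on the gene's strand. Capitals mark matches to TTCNNGAA or GAANNTTC, which both read the same on either strand, and in TSC22D3 a match to ACANNNTGT, the shortened palindrome of a glucocorticoid response element, which also reads the same on either strand.

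HSP90AA1, chr14:102087104-102087133, minus strand, 89 to 60 bases before the second of its 2 listed starts: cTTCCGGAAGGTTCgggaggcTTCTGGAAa
HSP90AB1, chr6:44247771-44247850, plus strand, 172 to 93 bases before the third of its 3 listed starts: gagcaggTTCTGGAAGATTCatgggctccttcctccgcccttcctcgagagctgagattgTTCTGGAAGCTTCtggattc
DDIT4, chr10:72273681-72273710, plus strand, 243 to 214 bases before its 1 listed start: ccgcggatcctTTCCAGAAagggggcgtgg
TSC22D3, chrX:107775976-107776005, minus strand, 218 to 189 bases before the second of its 4 listed starts: agggtaatttACATGCTGTcatatcccagt

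A match to TTCNNGAA or GAANNTTC stood in 3 of the 24 windows (12.5%) and in 11.6% of all 35,116 windows. By gene it stood in 3 of the 8 and in 3813 of all 27,305 genes, a larger share of the 8. Genes without a match hold many of the 24 windows, with 7 for NR3C1 alone, which lowers the share by window. The longer run, TTCNNGAA followed directly by NNTTC or its reverse complement, GAANNTTC followed by NNGAA, stood in 2 of the 24 windows, those of HSP90AA1 (1 match) and HSP90AB1 (2 matches), and in 0.441% of all windows. PTGES3 had neither in its single window. ACANNNTGT stood in 1 of the 24 windows (4.17%) and in 4.61% of all windows, or by gene in 1 of the 8 and in 5.64% of all genes. The full palindrome, AGAACA and TGTTCT with 3 bases between, stood in none of the 24 and in 0.00285% of all. These are matches of letters in these windows and were not measured as binding. The stretches printed for HSP90AA1 and TSC22D3 also lie in an annotated untranslated region of a transcript.

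PTGES3 encodes p23, which closes the HSP90 complex around the receptor, and lies on chromosome 12 (57,057,125 to 57,082,078, hg19). It had 507 CPM (RS4;11) and 578 CPM (SEM) in the MLL-AFF1 lines, against 414 CPM (NALM6) and 396 CPM (REH) in the controls. The groups did not overlap, and here SEM rather than RS4;11 was highest. The log2 fold change was 0.52 (SE 0.17, edgeR adjusted p = 0.399), between 0.45 and 0.61 when each line was left out. The group means were 542 ± 50.7 CPM with MLL-AFF1 and 405 ± 12.6 CPM without it (SD, n = 2 each).

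The immunophilins FKBP4 and FKBP5 compete for the same place on HSP90. FKBP4 (FKBP52) favours hormone binding and the movement of the receptor to the nucleus, and FKBP5 (FKBP51) opposes both. FKBP4, on chromosome 12 (2,904,108 to 2,914,587, hg19), had 38.9 CPM (RS4;11) and 6.81 CPM (SEM) in the MLL-AFF1 lines, against 41.1 CPM (NALM6) and 106 CPM (REH) in the controls. SEM was the low line and REH the high one, while RS4;11 and NALM6 had overlapping counting intervals (37.2 to 40.6 CPM and 39.2 to 43.0 CPM). Both MLL-AFF1 lines were below both controls in CPM by column sum, but with TMM-scaled library sizes RS4;11 had 40.8 CPM against 39.5 CPM in NALM6 and the groups overlapped. The log2 fold change was -1.58 (SE 1.05, edgeR adjusted p = 0.602), and it was -0.80 without SEM, -0.74 without REH and -3.34 without RS4;11.

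FKBP5, on chromosome 6 (35,541,362 to 35,704,724, hg19), had 213 CPM (RS4;11) and 234 CPM (SEM) in the MLL-AFF1 lines, against 152 CPM (NALM6) and 215 CPM (REH) in the controls. The groups overlapped, since REH lay between RS4;11 and SEM, and the counting intervals of REH and RS4;11 overlapped. With TMM-scaled library sizes both MLL-AFF1 lines, at 223 and 239.6 CPM, were above NALM6 at 146 CPM and REH at 208 CPM. Its log2 fold change was 0.39 (SE 0.24, edgeR adjusted p = 0.578), with a range of 0.16 (without NALM6) to 0.65 (without REH). The highest line exceeded the lowest only 1.54-fold, against 15.6-fold for FKBP4.

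The ratio of FKBP5 to FKBP4 counts was 5.47 in RS4;11 and 34.3 in SEM, against 3.70 in NALM6 and 2.02 in REH. FKBP5 reads were the more numerous in every line, and both MLL-AFF1 lines were above both controls. The mean log2 ratio was 3.78 ± 1.87 with MLL-AFF1 and 1.45 ± 0.62 without it (SD, n = 2 each). The difference of 2.33 was 1.00 without SEM and 3.65 without RS4;11, and the exact two-sided permutation p was 0.333, the smallest that 2 lines against 2 allow. Per length, FKBP5 exceeded FKBP4 9.47-fold in the MLL-AFF1 group and 2.42-fold in the controls by the FPKM of the authors' deposited Cuffdiff table.

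**Figure D2:**
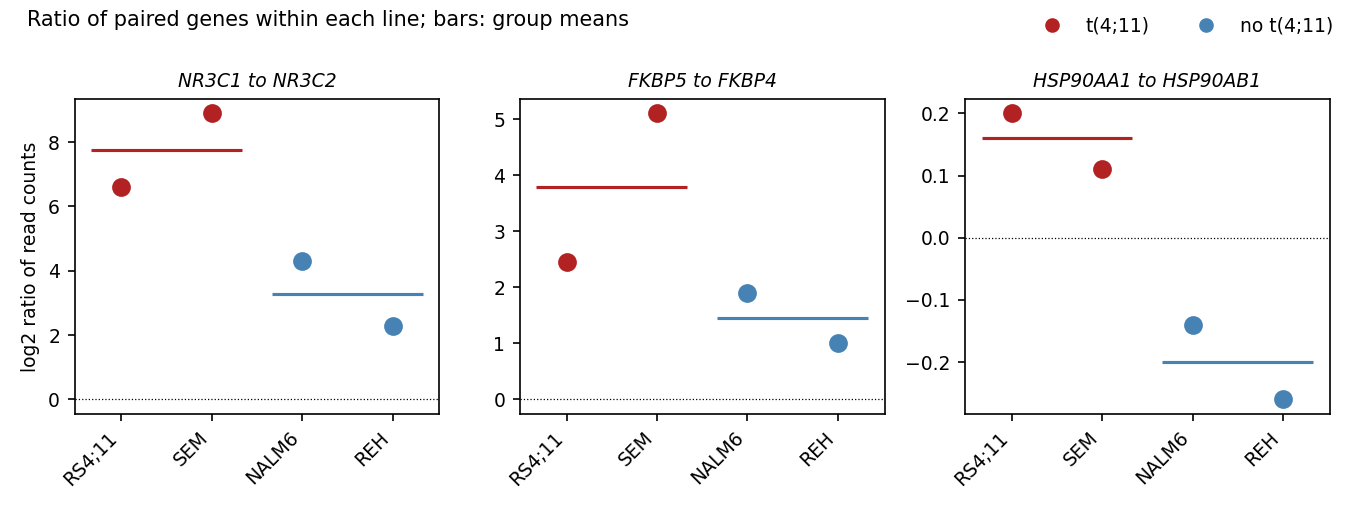
Log2 ratio of read counts (y axis) of NR3C1 to NR3C2, FKBP5 to FKBP4 and HSP90AA1 to HSP90AB1 in each line, with points for lines and bars for group means (red t(4;11), blue without it). Each panel has its own scale, and in each the 2 t(4;11) lines lie above the 2 controls, by a mean of 4.45, 2.33 and 0.35. How often other pairs of genes separate in this way is not given.

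Among the targets, TSC22D3 encodes GILZ, a leucine zipper protein that carries part of the anti-inflammatory action of glucocorticoids. It lies on chromosome X (106,956,452 to 107,019,017, hg19). It had 75.5 CPM (RS4;11) and 64.0 CPM (SEM) in the MLL-AFF1 lines, against 11.7 CPM (NALM6) and 176 CPM (REH) in the controls. The controls lay on either side of the MLL-AFF1 lines, with REH 15.0-fold above NALM6, while RS4;11 was only 1.18-fold above SEM. GILZ's log2 fold change was -0.33 (SE 1.29, edgeR adjusted p = 0.937), and it turned to 2.67 without REH and was -1.23 without NALM6.

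DDIT4 encodes REDD1, an inhibitor of mTORC1 that glucocorticoids, amino acid shortage and hypoxia induce, and lies on chromosome 10 (74,033,677 to 74,035,797, hg19). It had 54.0 CPM (RS4;11) and 126 CPM (SEM) in the MLL-AFF1 lines, against 47.9 CPM (NALM6) and 60.1 CPM (REH) in the controls. SEM was the high line, and RS4;11 fell between the controls. Its fitted value of 0.83 on the log2 scale (SE 0.48, edgeR adjusted p = 0.558) was 0.13 without SEM and 1.32 without RS4;11.

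ZBTB16 encodes the zinc finger repressor PLZF, which glucocorticoids strongly induce in many tissues, and lies on chromosome 11 (113,930,431 to 114,121,397, hg19). It had 5 reads in RS4;11 (0.0964 CPM) and 2 in SEM (0.0595 CPM), against 0 reads in NALM6 and in REH. A count of 0 allows up to 3 reads by the one-sided floor, or 0.0669 CPM in NALM6 and 0.0356 CPM in REH, for counting error only. The upper end of the two-sided exact Poisson 95% interval drawn in the plot of levels was 0.0822 CPM in NALM6 and 0.0438 CPM in REH. That interval reached from 0.0313 to 0.225 CPM in RS4;11 and from 0.00720 to 0.215 CPM in SEM. ZBTB16 did not pass the low-count filter, and no fold change or difference is given for it.

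Set against the receptor, the targets did not follow its order. NR3C1 was highest in RS4;11, yet FKBP5 and DDIT4 were highest in SEM and TSC22D3 in REH. NALM6 was the lowest line for all 3 and also for NR3C1, though for NR3C1 its counting interval overlapped that of REH. The ratio of TSC22D3 to NR3C1 counts was 0.129 in RS4;11 and 0.323 in SEM, against 0.104 in NALM6 and 1.50 in REH. For FKBP5 it was 0.363 and 1.18 with MLL-AFF1, against 1.35 and 1.83 without it. For DDIT4 it was 0.0921 in RS4;11, the lowest line, and 0.639 in SEM, the highest, against 0.425 in NALM6 and 0.512 in REH.

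**Figure D3:**
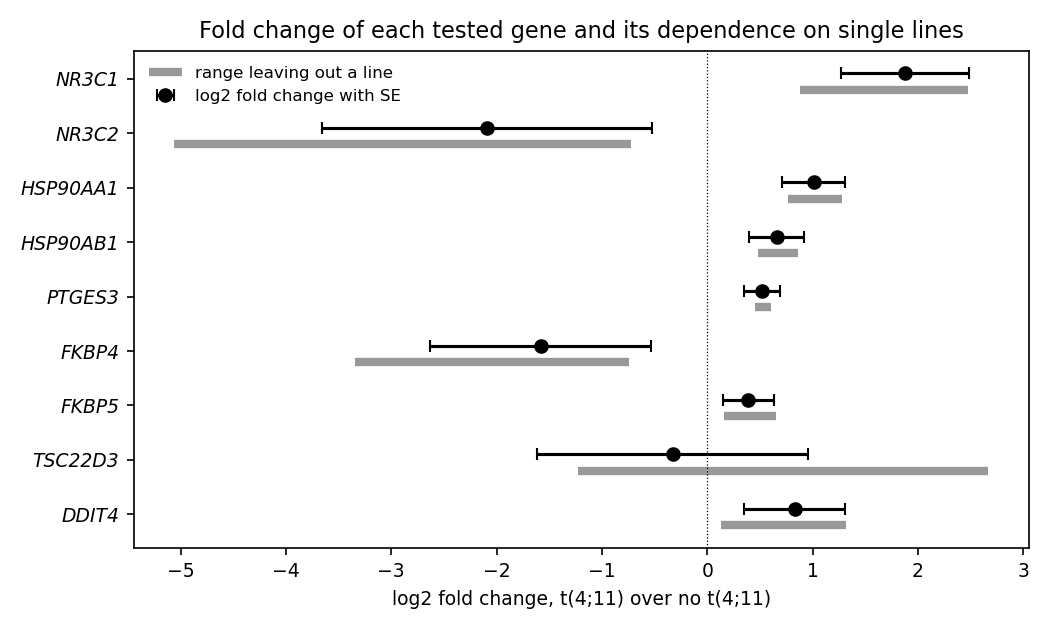
Log2 fold change, t(4;11) over no t(4;11), of the 9 tested genes with its SE from edgeR (black) and the range when each line is left out in turn (grey). PTGES3, HSP90AB1, FKBP5 and HSP90AA1 have the narrow ranges, and TSC22D3 is the gene whose range crosses 0.

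Differences within a group were as large as those between groups for several of these genes. Between RS4;11 and SEM, 3 of the 9 genes were at least 2-fold higher in RS4;11 (NR3C1 2.97-fold, NR3C2 14.5-fold, FKBP4 5.71-fold), where 11.5% of all tested genes were. DDIT4 was 2.34-fold higher in SEM, on a side where 11.8% of all tested genes lay. Between REH and NALM6, 3 genes were at least 2-fold higher in REH (NR3C2 4.19-fold, FKBP4 2.59-fold, TSC22D3 15.0-fold), where 18.7% of all tested genes were, and 0 were 2-fold higher in NALM6 (11.9%). HSP90AA1, HSP90AB1, PTGES3 and FKBP5 differed less than 2-fold within both groups. Each line has 1 library, so none of these differences has a replicate check.

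The wider machinery was read from lists of textbook members. Of 20 other HSP90 and HSP70 partners, such as STIP1 (HOP), which passes clients between the chaperones, all were tested. In CPM, 6 were above and 4 below both controls in both MLL-AFF1 lines, where 19.0% and 28.3% of all tested genes were, and the median log2 fold change was 0.17 (0.03 without RS4;11, 0.08 without REH, 0.30 without SEM and 0.27 without NALM6). With TMM-scaled library sizes the counts were 8 and 2, where 24.3% and 23.4% of all tested genes were. None was called by edgeR's quasi-likelihood or exact test, by DESeq2 or in either deposited table of the authors. An unadjusted quasi-likelihood p under 0.05 was found for 2 of the 20, where 12.0% of all tested genes had one. HSPH1, an HSP70 nucleotide exchange factor of the heat-shock response, had 237 (RS4;11) and 157 CPM (SEM), against 116 (NALM6) and 106 CPM (REH) (fold change of 0.94 on the log2 scale with an SE of 0.27, edgeR adjusted p = 0.382). The inducible HSP70 gene HSPA1B had 12.6 and 13.3 CPM with MLL-AFF1, against 5.40 and 8.73 CPM without it. Its near-identical copy HSPA1A had 0.540 and 4.97 CPM with MLL-AFF1, against 0.446 and 0.0119 CPM without it, and reads of the pair cannot be assigned with certainty.

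Of 21 receptor coregulators, 3 were above and 7 below both controls in both MLL-AFF1 lines (14.3% and 33.3%), where 19.0% and 28.3% of all tested genes were, with a median log2 fold change of -0.03, which was 0.17 without NALM6. With TMM-scaled library sizes these counts were 7 and 6, where 24.3% and 23.4% of all tested genes were. NRIP1 (RIP140), a corepressor of nuclear receptors, had 200.1 CPM (RS4;11) and 13.0 CPM (SEM) in the MLL-AFF1 lines, against 623 CPM (NALM6) and 637 CPM (REH) in the controls. It was called lower by both deposited comparisons of the authors, DESeq (adjusted p = 5.54e-05) and Cuffdiff (q = 0.00418). The edgeR quasi-likelihood test gave its log2 fold change of -2.45 an SE of 1.36 and an adjusted p of 0.549. That test called 0 of the 21 genes, with 2 at an unadjusted p under 0.05, where 12.0% of all tested genes had one. The exact test called 0 and DESeq2 called 2, both higher, where it called 5.21% of the genes it tested higher.

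Of 28 genes known to be induced by glucocorticoids in lymphoid or other cells, 26 were tested, with 2 above and 9 below both controls, or 7.69% and 34.6%, where 19.0% and 28.3% of all tested genes were. With TMM-scaled library sizes 3 and 6 were, or 11.5% and 23.1%, where 24.3% and 23.4% of all tested genes were. The median log2 fold change was -0.50, and it was 0.02 without REH and -1.35 without RS4;11. KLF9, a Krüppel-like repressor and direct receptor target, had 21.6 (RS4;11) and 34.3 CPM (SEM), against 1.36 (NALM6) and 0.166 CPM (REH). The authors' deposited DESeq table called it higher (adjusted p = 4.36e-08) and their deposited Cuffdiff table did not (q = 0.169). For KLF9 edgeR gave a log2 fold change of 5.31 (SE 1.30, quasi-likelihood adjusted p = 0.355). The authors' deposited Cuffdiff table called 4 genes of this list lower, where it called 1.11% of its tested genes lower. Their deposited DESeq table called none of the 4, with an adjusted p of 0.668 for TNFAIP3, 0.871 for FOXO1 and 0.876 for CXCR4. The edgeR quasi-likelihood adjusted p of the 4 lay between 0.324 (TNFAIP3) and 0.589 (FOXO1). TNFAIP3 (A20), a brake on NF-kB, had 16.4 and 7.32 CPM with MLL-AFF1, against 156 and 672 CPM without it. FOXO1, a forkhead factor of B-cell development, had 65.2 and 1.70 CPM with MLL-AFF1, against 141 and 370.5 CPM without it. CXCR4, the chemokine receptor for CXCL12, had 230.4 and 79.7 CPM with MLL-AFF1, against 792 and 419.7 CPM without it. TXNIP, an inhibitor of thioredoxin, had 86.0 and 114 CPM with MLL-AFF1, against 117 and 501 CPM without it. For TXNIP, SEM (114 CPM) and NALM6 (117 CPM) nearly coincided, and REH alone stood apart. Over this list edgeR's quasi-likelihood test called 0 genes. Of the 26, 4 had an unadjusted p under 0.05 by that test, where 12.0% of all tested genes had one. The edgeR exact test called 1 higher and 1 lower, where it called 3.19% of all genes in either direction. DESeq2 called 2 higher and 1 lower, where it called 5.21% and 4.93% of the genes it tested.

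Genes linked to glucocorticoid resistance of ALL gave 3 above and 3 below of 13 tested (23.1% each way), where 19.0% and 28.3% of all tested genes were, with a median log2 fold change of 0.16 (0.03 without RS4;11, 0.04 without REH and 0.29 without SEM). NLRP3, the inflammasome sensor whose caspase-1 can cleave the receptor, had 45.2 (RS4;11) and 44.2 CPM (SEM), against 10.0 (NALM6) and 0.511 CPM (REH). The authors' deposited DESeq table called it higher (adjusted p = 8.20e-06), their deposited Cuffdiff table did not (q = 0.220), and edgeR's quasi-likelihood test gave an adjusted p of 0.501. In this list edgeR's quasi-likelihood test called 0 genes and its exact test 0. By the quasi-likelihood test 1 of the 13 had an unadjusted p under 0.05, where 12.0% of all tested genes had one. DESeq2 called 1 higher, where it called 5.21% of the genes it tested higher. Of 6 genes of glucocorticoid transport and metabolism, 2 were counted highly enough to be tested, and edgeR's quasi-likelihood and exact tests and DESeq2 called 0 of the 2, with 0 at an unadjusted p under 0.05. One of them, the steroid reductase gene SRD5A1, was below both controls in both MLL-AFF1 lines, with 7.87 (RS4;11) and 14.7 CPM (SEM), against 19.2 (NALM6) and 29.4 CPM (REH). Of all tested genes 28.3% were below both controls in this way.

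The genes listed beside DDIT4 as inducers or co-targets under amino acid shortage or hypoxia stood below the controls in the MLL-AFF1 lines, while the groups overlapped for DDIT4. Of 11 such genes 10 were tested, and all 10 were below both controls in both MLL-AFF1 lines, where 28.3% of all tested genes were. Among the 10, ADM had 0.0193 (RS4;11) and 0 CPM (SEM), against 0.825 (NALM6) and 5.96 CPM (REH). ADM passed the low-count filter only through the controls, so its place below them was fixed in advance. The list was chosen with earlier results of these data known. The 10 were also below with TMM-scaled library sizes, where 23.4% of all tested genes were. Their median log2 fold change was -1.45, with values of -0.91 without RS4;11, -2.26 without SEM, -1.32 without NALM6 and -1.69 without REH. VEGFA, the angiogenic growth factor, had 13.2 (RS4;11) and 11.5 CPM (SEM), against 46.5 (NALM6) and 60.8 CPM (REH) (fold change of -2.02 on the log2 scale with an SE of 0.28, edgeR adjusted p = 0.310). BNIP3, a hypoxia-induced mitophagy receptor, had 0.540 and 39.8 CPM with MLL-AFF1, against 83.4 and 124 CPM without it. TRIB3, a pseudokinase induced by ATF4, had 9.95 and 21.2 CPM with MLL-AFF1, against 81.2 and 47.3 CPM without it. ATF4 itself had 495 and 447 CPM with MLL-AFF1, against 599 and 536 CPM without it, the smallest difference of the 10 (log2 fold change -0.16, SE 0.18). Of the 10, edgeR's quasi-likelihood test called 0 and gave 3 an unadjusted p under 0.05, where 12.0% of all tested genes had one. These 3 were VEGFA, TRIB3 and ADM. ADM, fixed in advance by the filter, is thus counted among the 3, among the 10 below both controls and in the median of -1.45. The edgeR exact test called 2 lower, where it called 161 of all 13,844 genes lower. DESeq2 called 3 lower, where it called 4.93% of the genes it tested lower. The authors' deposited DESeq table called VEGFA (adjusted p = 0.0334) and BNIP3 (adjusted p = 0.0279) lower, where it called 1.56% of its tested genes in either direction. Their deposited Cuffdiff table called none.

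**Figure D4:**
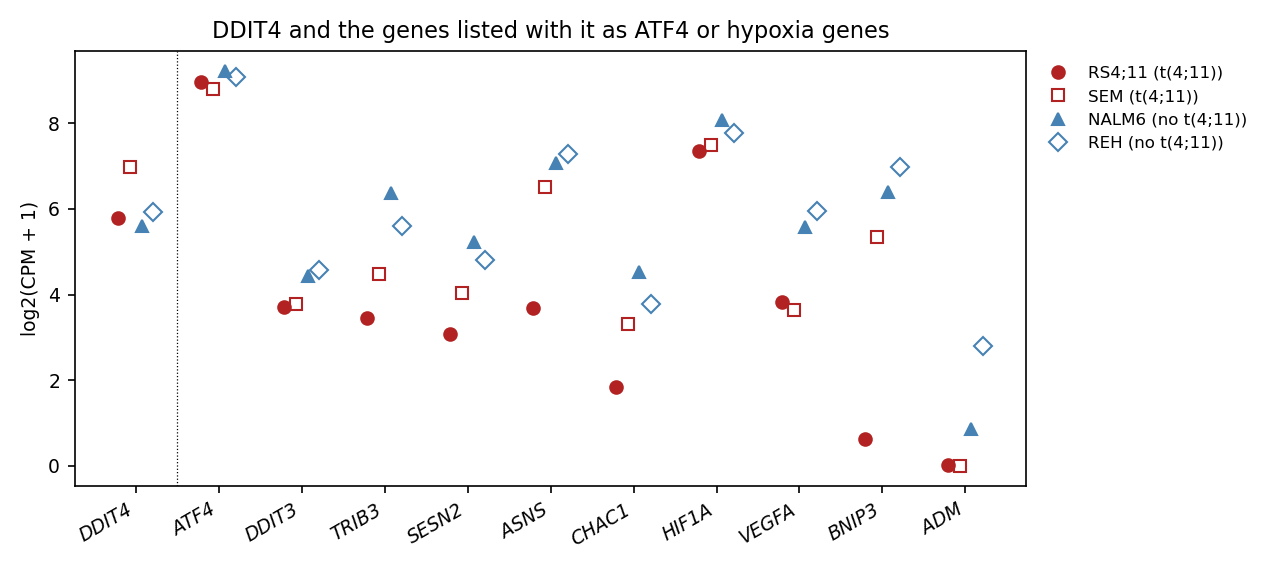
Level of DDIT4 (left of the dotted line) and of the 10 tested genes listed with it, as log2(CPM + 1) per line (red t(4;11), blue without it, 1 marker shape per line). The t(4;11) lines lie below both controls for all 10 listed genes, while DDIT4 is highest in SEM at 126 CPM. ADM passed the low-count filter only through the controls.

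Relatives of TSC22D3 and ZBTB16 lay on both sides. Of 7 TSC22 and BTB zinc finger genes, 1 was above and 3 were below both controls in both MLL-AFF1 lines (14.3% and 42.9%), where 19.0% and 28.3% of all tested genes were. TSC22D2 had 38.5 and 28.5 CPM with MLL-AFF1, against 20.3 and 21.3 CPM without it. TSC22D4 had 77.2 and 43.0 CPM with MLL-AFF1, against 77.8 and 179 CPM without it, and ZBTB7B, a BTB zinc finger factor, had 10.7 and 9.73 CPM with MLL-AFF1, against 25.8 and 31.5 CPM without it. With TMM-scaled library sizes 1 of the 7 was above and 1 below (14.3% each), where 24.3% and 23.4% of all tested genes were. The list's median log2 fold change was 0.30 (-0.55 without RS4;11 and -0.14 without NALM6). By the quasi-likelihood test edgeR called 0 of the 7, with 1 at an unadjusted p under 0.05, where 12.0% of all tested genes had one. The exact test called 0, while DESeq2 called 1 lower, where it called 4.93% of the genes it tested lower.

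Genes most like each member were taken as those with the smallest root mean square difference in log2(CPM + 1), centred on its mean over the 4 lines, among 9554 genes with a mean of at least 10 CPM. With 4 lines such a likeness is a description of 4 values. For NR3C1 the nearest were ELL3 (0.171), an elongation factor, FAM116B (0.246) and TARSL2 (0.259). ELL3 had 50.9 (RS4;11) and 14.5 CPM (SEM), against 10.4 (NALM6) and 11.6 CPM (REH). For NR3C2 the nearest was FKBP4 (0.200), so that the second receptor and this immunophilin had the same order of lines, with REH first and SEM last, except that RS4;11 and NALM6 changed places. With a pseudocount of 0.1 CPM in place of 1, FKBP4 was no longer among the 3 nearest to NR3C2, and of the 3 nearest to TSC22D3 only TNS3 stayed. Of the other sets of 3, those of FKBP4 and HSP90AA1 kept 3 and those of NR3C1 and DDIT4 kept 2. For FKBP4 itself PTPRE (0.216), a tyrosine phosphatase, was among the 3 nearest, and for TSC22D3 the nearest were ZNF514 (0.103), PRKCH (0.108) and TNS3 (0.137). HSP90AA1 was most like FAM35A (0.0240) and CAPZA2 (0.0241), and the 3 nearest to DDIT4 were RILPL2 (0.0830), SLC30A1 and USP12 (0.110), in that order.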

How the data were processed

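RNA of 4 cell lines, 1 library each, was made into libraries from 1 μg of total RNA with a TruSeq kit, per the labels' protocols. The kit does not mark strand, so reads of a gene and of one overlapping it on the other strand (in GENCODE 29, for FKBP4, TSC22D3, HSP90AA1 and DDIT4) cannot be told apart. Tools named in the submitters' processing notes are HTSeq, DESeq, Cuffdiff, TopHat2 2.0.4 and CASAVA 1.8.2, with build hg19. For annotation and counting settings, the sources used here give nothing.

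Count and signal columns of the deposited tables are, per the file headers, HTSeq counts per line and DESeq normalized counts, a signal. They also hold the authors' ratio of control over t(4;11) with p-values and, from Cuffdiff, FPKM per group, a log2 fold change, a test statistic (a score) and q-values. Both deposited fold changes were turned to t(4;11) over control. Coordinates are Cuffdiff loci, which may span neighbouring genes, with starts counted from 1.

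Counts were fitted with edgeR 4.0.16 in R 4.3.3 (TMM, filterByExpr, quasi-likelihood test, two-sided, Benjamini-Hochberg over 13,844 genes, called at 0.05). The fit was also run on simulated counts with large changes and the same dispersion for every gene. That run does not show how often changes of the size seen here would be called. The SE is the log2 fold change divided by the square root of F. DESeq2 1.42.0, the edgeR exact test, other scalings and filters, leaving out each line and both deposited comparisons were alternatives. CPM and counting intervals (exact Poisson, 95%) use column sums. Reads carry no molecular identifiers and may repeat a molecule, so intervals and floors cover counting error only.

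All 10 members are named. Of each list, genes called by edgeR's quasi-likelihood test or in a deposited table are named, otherwise up to 3 with the largest fold change whose groups do not overlap. PAX5, VPREB1, IGLL1, MPO, LYZ, ATF4, TRIB3, ADM and STIP1 were added after their values were seen. The members and lists were chosen with earlier results of these data known. Lists are described by counts and medians, with no set test. A few genes and 1 list are not reported here.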

Additional observations from a re-analysis of the deposited data

How the results depend on the processing

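Of 108 member fold changes recomputed under an alternative, 103 kept their direction and their side of the threshold, 4 passed it and 1 reversed, which was TSC22D3 at 2.67 without REH (-1.23 to 2.67 over the left-out lines). Those that passed were NR3C1 (adjusted p = 0.0301), HSP90AA1 (0.0116) and PTGES3 (0.0187) by DESeq2, and NR3C1 by Cuffdiff as the authors deposited it (q = 0.00418). The number of members called was thus 3 by DESeq2 and 1 in the Cuffdiff table. It was 0 under the other alternatives, with a range of 0 to 0 when a line was left out. Over all genes edgeR's quasi-likelihood test called 0, with 1668 at an unadjusted p under 0.05, and 0 to 0 when a line was left out. The count was 5 with no filter, 4 with a minimum of 1 CPM in 2 lines, 441 by the edgeR exact test and 1349 by DESeq2. It was 288 and 332 in the authors' deposited DESeq and Cuffdiff tables. The cause of these differences was not tested. The log2 differences of the 3 gene ratios kept their sign without each line, from 3.31 to 5.60 for NR3C1 to NR3C2, from 1.00 to 3.65 for FKBP5 to FKBP4 and from 0.29 to 0.42 for HSP90AA1 to HSP90AB1. Leaving out lines for the ratios, and overlap with TMM-scaled library sizes, were chosen after seeing the data. No paired analysis was possible because the 4 libraries are of 4 different lines, with nothing that pairs a line of 1 group with a line of the other. Depth limits NR3C2 in SEM and ZBTB16 in every line.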
